A study of Mus musculus with 47 samples.

Results

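The complement genes described here are 9 of the 14221 genes counted in hypothalamic tissue from Lep ob/ob mice, namely C1qa, C1qb, C1qc, C3, C4b, Serping1, C3ar1, Cd55 and Cd59a, chosen by symbol as components and regulators of the complement system. All 9 had a row in the count table, from which the filter on low counts removed 0 genes. The mice were male and leptin-deficient, were labelled as 11 weeks old whatever the day of collection, and received a single intracerebroventricular (icv) injection of either 3 µg FGF1 (fibroblast growth factor 1) or vehicle, with vehicle-treated mice pair-fed to FGF1-treated mice. Hypothalami were collected from separate mice after 1 day (10 FGF1, 4 vehicle), 5 days (9 FGF1, 7 vehicle labelled non-diabetic, 7 vehicle labelled diabetic) or 42 days (5 FGF1, 5 vehicle), with 1 mRNA library per mouse. The vehicle groups of Days 1 and 42 are labelled non-diabetic, and the labels give no such status for FGF1-treated mice.

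Complement is a proteolytic cascade of innate immunity. C1q, assembled from the products of C1qa, C1qb and C1qc, recognizes immune complexes, apoptotic cells and synapses, and starts the classical pathway, in which C4 and then C3 are cleaved and deposited on the target. In the brain C1q is made mostly by microglia, C4b is expressed by astrocytes and oligodendrocytes, and both C1q and C3 are known for tagging synapses for removal by microglia. Serping1 encodes the C1 inhibitor, Cd55 and Cd59a encode membrane proteins that block the C3 convertases and the membrane attack complex, and C3ar1 encodes the receptor for the C3a fragment.

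Library totals ran from 1243280 counts, in replicate 1 of the FGF1 group of Day 1, to 47082403, with 7579695 to 30009258 counts in the libraries of Day 5. Expression is given as CPM, read counts scaled to the total of their library after TMM adjustment. The libraries of a day shared 1 preparation code, and day and preparation cannot be told apart, whereas each comparison of FGF1 with vehicle lay within 1 code. Of 11 marker genes of the hypothalamus, 10 were in the table, and none of these was at 0 throughout a group. A Day 5 library held at most 2 genes at 0, and libraries of the other days held 78 to 539. A gene absent on Day 5 was thus hardly ever in the table, so that checks for genes at 0 could hardly fail on that day. The library that stood most apart for complement was replicate 2 of the vehicle group labelled non-diabetic on Day 5, and Day 5 results that changed their call without it are given both ways. A gene was called when its adjusted p from edgeR's quasi-likelihood test was under 0.05 and its absolute log2 fold change above 0.5.

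The C1q genes lie next to each other on the minus strand of chromosome 4 (GRCm38, GENCODE M21): C1qb at chr4:136880129-136886187, C1qc at chr4:136889804-136893065 and C1qa at chr4:136895917-136898803, each with 3 merged exons. C3 (chr17:57203970-57228136) and C4b (chr17:34728380-34743882) are on chromosome 17, Serping1 (chr2:84765387-84775444) and Cd59a (chr2:104095801-104115354) on chromosome 2, C3ar1 on chromosome 6 (chr6:122847138-122856161) and Cd55 on chromosome 1 (chr1:130439027-130462744). C4b has a close paralog, C4a, that is not in the table, as have Cd59a (Cd59b) and Cd55 (Cd55b), and exons of Cd55 overlap Gm16083 on the other strand, so the values of these 3 genes are uncertain where reads could be shared.

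RefSeq (GRCm38.p6) gave a promoter window for 6 of the 9 genes. The 250 bases before the start site are shown for 3 genes that were higher on Day 1 after FGF1, 1 for each role: C1qb (initiation, chr4:136886201-136886450, minus strand), C3 (central component, chr17:57228137-57228386, minus strand) and C3ar1 (receptor, chr6:122856158-122856407, minus strand). Capitals mark matches, on either strand, to 1 of 5 short motifs, namely the PU.1 core GAGGAA, the AP-1 motif TGANTCA, the C/EBP motif TTGCNNCAA, the STAT motif TTCNNNGAA and the interferon-response-like motif GAAANNGAA.
C1qb: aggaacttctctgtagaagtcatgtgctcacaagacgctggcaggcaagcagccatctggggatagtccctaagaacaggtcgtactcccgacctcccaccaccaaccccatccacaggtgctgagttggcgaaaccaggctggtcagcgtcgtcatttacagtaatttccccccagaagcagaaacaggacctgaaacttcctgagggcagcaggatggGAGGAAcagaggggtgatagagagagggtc
C3: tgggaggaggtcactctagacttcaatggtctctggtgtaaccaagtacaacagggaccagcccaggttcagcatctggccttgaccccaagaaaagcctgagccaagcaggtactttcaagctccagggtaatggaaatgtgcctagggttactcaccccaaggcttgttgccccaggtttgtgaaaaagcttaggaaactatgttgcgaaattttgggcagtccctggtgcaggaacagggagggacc
C3ar1: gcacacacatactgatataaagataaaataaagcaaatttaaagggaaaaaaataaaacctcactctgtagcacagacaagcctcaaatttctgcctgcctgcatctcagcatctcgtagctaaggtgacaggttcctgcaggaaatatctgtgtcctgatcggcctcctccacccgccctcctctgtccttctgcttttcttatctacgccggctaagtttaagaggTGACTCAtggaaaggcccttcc
In C1qb the PU.1 core, named for a transcription factor of myeloid cells, starts 30 bases before the start site, and 23.3% of 32851 RefSeq windows of this length hold it. The AP-1 match of C3ar1 starts 22 bases before the start site, and 6.7% of windows hold one. No motif of the 5 was found in these 250 bases of C3. Such matches describe letters in a window and say nothing of binding.

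**Figure D1:**
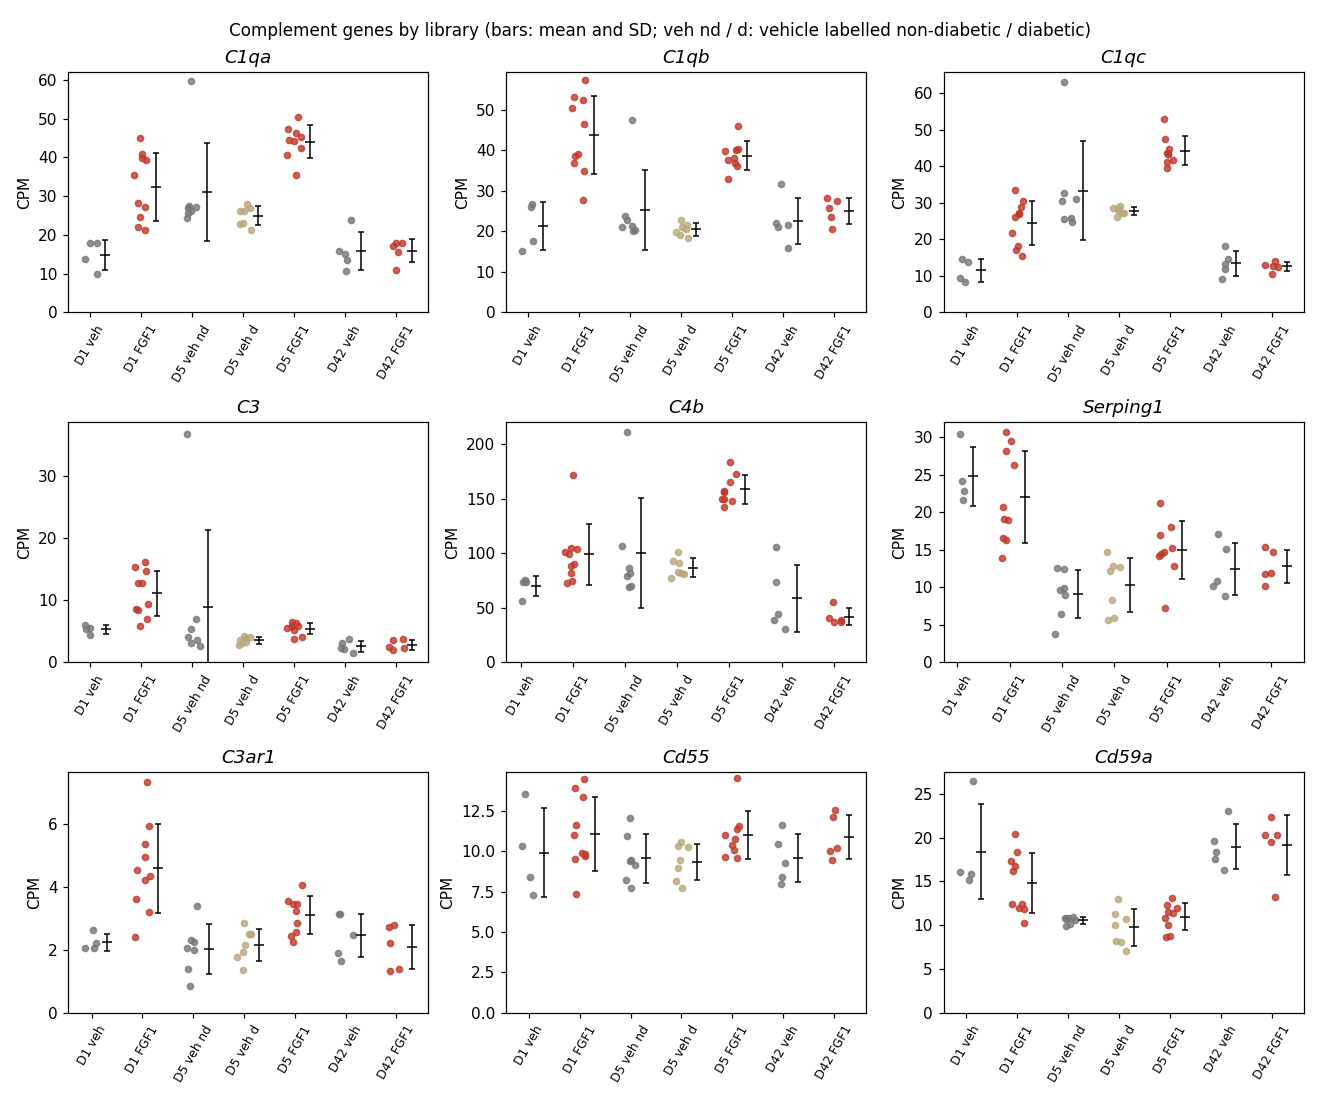
Expression of the 9 complement genes (CPM, linear axes from 0) in each of the 47 libraries by group, with mean and SD beside the points (the SD bar of C3 in the non-diabetic vehicle group is cut at 0). The C1q values of FGF1-treated mice (red) lie above all vehicle values on Day 1, above all but those of 1 vehicle library on Day 5 (59.6 CPM for C1qa, in the group against which C1qa and C1qc did not pass), and among the vehicle values on Day 42.

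On Day 1, 5 of the 9 genes were higher in FGF1-treated mice past both thresholds, C1qa, C1qb, C1qc, C3 and C3ar1, and none was lower, against 11.5% of all genes tested that were higher. The 9 genes were chosen with earlier results of these data known, and the C1q genes varied together (Spearman's rho 0.78 to 0.89). The count therefore describes these genes and is no test of the set. The median log2 fold change of the 9 genes was 0.96, and that of all genes 0.01. In tissue RNA, more cells of a type and more RNA per cell cannot be told apart.

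The initiating C1q genes had the highest fold changes of the 9. In the 4 vehicle-treated mice C1qa measured 17.9, 9.91, 13.7 and 17.97 CPM, and in the 10 FGF1-treated mice it ran from 21.1 through a median of 31.9 to 45.0 CPM. C1qb measured 26.8, 15.1, 17.6 and 26.0 CPM in vehicle-treated mice and ran from 27.7 (median 42.9) to 57.3 CPM after FGF1. C1qc measured 14.6, 8.24, 9.29 and 13.9 CPM against 15.5 to 33.4 CPM (median 26.5). The ranges of all 3 genes were separate, with the lowest FGF1 value above the highest vehicle value, as in 7.56% of all genes. The log2 fold changes were 1.15 ± 0.20 (SE) for C1qa, 1.06 ± 0.17 for C1qb and 1.09 ± 0.19 for C1qc, with edgeR adjusted p-values of 6.2e-06, 1.86e-06 and 6.34e-06. Two-sided exact permutation tests of log2(CPM + 0.5) each gave p = 0.000999, the smallest that 10 against 4 mice allow. These tests are unadjusted and are 45 in all.

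Among the central components, C3 passed on Day 1, and C4b did not in the fit of all libraries. C3 measured 4.37, 5.45, 6.07 and 5.58 CPM in vehicle-treated mice and 5.89 to 16.2 CPM (median 11.0) after FGF1, with 9 of 10 FGF1-treated mice above all vehicle-treated mice. Its log2 fold change was 1.01 ± 0.37 (edgeR adjusted p = 0.0226). The call for C3 was lost without replicate 1 (adjusted p = 0.0687) or replicate 2 (0.0534) of the vehicle group. C4b, the most abundant of the 9 genes in CPM, measured 73.4, 56.1, 75.3 and 73.9 CPM in vehicle-treated mice and 73.0 to 172 CPM (median 94.7) after FGF1. The groups overlapped, and the log2 fold change of 0.50 ± 0.22 did not pass (adjusted p = 0.064). Replicate 6 of the FGF1 group held the highest C4b value, and without it the log2 fold change was 0.37. C4b lay close to both thresholds, and a fit of all groups without the Day 5 vehicle replicate 2 left its Day 1 log2 fold change at 0.50 and gave an adjusted p of 0.028, so that 6 of the 9 genes were then higher past both thresholds, against 11.4% of all genes. The same call was gained without vehicle replicate 1 or 3 of Day 42 (adjusted p = 0.0489 and 0.0394) and with Day 1 fitted alone (0.0381).

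C3ar1, the C3a receptor, measured 2.06, 2.63, 2.07 and 2.22 CPM in vehicle-treated mice and 2.42 to 7.33 CPM (median 4.45) after FGF1, with 9 of 10 mice above all vehicle-treated mice. Its log2 fold change was 0.96 ± 0.22 (edgeR adjusted p = 0.000393). The highest value came from the shallowest library, where it rested on 9 reads, and without that library the log2 fold change was 0.94.

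The inhibitors among the 9 genes showed no such increase on Day 1, and inhibitors outside the 9 moved both ways (log2 fold change 0.82 for Clu and -0.63 for Vtn). Serping1 measured 24.1, 30.4, 21.6 and 22.9 CPM in vehicle-treated mice and ran from 13.9 (median 19.9) to 30.7 CPM after FGF1 (log2 fold change -0.14 ± 0.22, adjusted p = 0.634). Cd55 measured 10.4, 13.6, 8.42 and 7.30 CPM against 7.33 to 14.5 CPM (log2 fold change 0.20 ± 0.13, adjusted p = 0.231). For Serping1 6 of 10 FGF1-treated mice lay below all vehicle-treated mice and 1 above, and the groups of Cd55 overlapped over most of their ranges. Cd59a measured 16.1, 26.5, 15.1 and 15.9 CPM against 10.3 to 20.4 CPM, and 5 of 10 FGF1-treated mice lay below all vehicle-treated mice. Its log2 fold change of -0.35 ± 0.14 had an adjusted p of 0.0404 and stayed inside the fold threshold. Without vehicle replicate 2 the log2 fold change was -0.13 (adjusted p = 0.536) for Cd59a and 0.39 (adjusted p = 0.0271) for Cd55. That of Cd55 was 0.13 without vehicle replicate 3 and 0.08 without replicate 4, and leaving out any 1 of the 4 vehicle libraries left both genes inside the fold threshold.

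**Figure D2:**
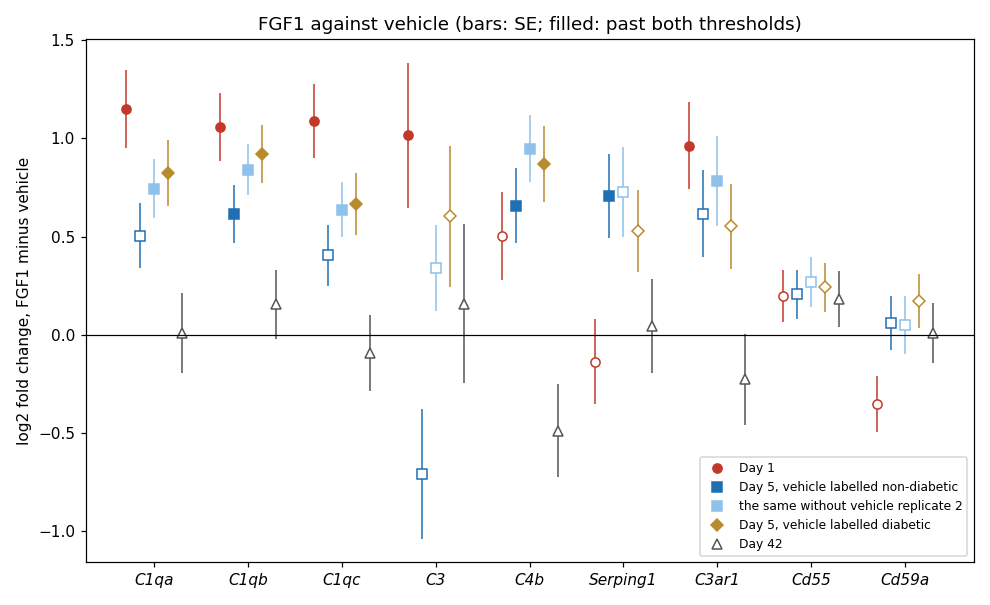
Log2 fold changes of FGF1 against vehicle with SE (y axis) for the 9 genes (x axis) on Days 1, 5 and 42, with Day 5 shown against each vehicle group and without vehicle replicate 2. Filled symbols passed both thresholds: 5 genes on Day 1, 3, 4 or 5 on Day 5 (against vehicle labelled non-diabetic, labelled diabetic, and the former without replicate 2) and 0 on Day 42.

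The Day 5 libraries were compared with each of the vehicle groups of that day, and these comparisons share the same 9 FGF1-treated mice. Against vehicle labelled non-diabetic, 3 of 9 genes were higher past both thresholds, C1qb, C4b and Serping1, against 1.31% of all genes. Against vehicle labelled diabetic, 4 of 9 were higher, C1qa, C1qb, C1qc and C4b, against 2.36% of all genes. No gene of the 9 was lower past the thresholds in either comparison.

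C1qa ran from 35.4 (median 44.5) to 50.4 CPM in FGF1-treated mice on Day 5 and from 21.3 (median 26.1) to 28.1 CPM in vehicle-treated mice labelled diabetic. The group labelled non-diabetic ran from 24.4 (median 26.9) to 59.6 CPM, and its highest value was that of replicate 2, with the other 6 libraries at or below 27.4 CPM. FGF1-treated mice therefore lay above every vehicle-treated mouse but that one. C1qb ran from 33.0 to 46.1 CPM after FGF1 (median 38.2), from 18.4 to 22.8 CPM in vehicle labelled diabetic (median 20.6) and from 20.1 to 47.5 CPM in vehicle labelled non-diabetic (median 21.3). C1qc ran from 39.5 to 53.0 CPM (median 43.4), from 26.0 to 29.2 CPM (median 28.1) and from 24.7 to 63.1 CPM (median 30.5). Both genes had the pattern of C1qa, with replicate 2 alone among the 14 vehicle libraries reaching the FGF1 range.

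Against vehicle labelled diabetic the log2 fold changes were 0.82 ± 0.17 for C1qa, 0.92 ± 0.15 for C1qb and 0.67 ± 0.16 for C1qc (edgeR adjusted p = 0.00065, 2.12e-05 and 0.0033). Against vehicle labelled non-diabetic they were 0.50 ± 0.17, 0.61 ± 0.15 and 0.41 ± 0.16, with adjusted p-values of 0.0704, 0.00663 and 0.138, so that C1qb alone of the 3 passed. Without replicate 2 they were 0.74, 0.84 and 0.64, and all 3 genes passed (adjusted p = 0.000948, 1.49e-05 and 0.00221). In that fit 5 of the 9 genes were higher past both thresholds, the C1q genes, C4b and C3ar1, against 1.49% of all genes.

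C4b had the same arrangement on Day 5. It ran from 142.6 (median 156.3) to 183.6 CPM after FGF1, from 77.2 (median 82.6) to 101 CPM in vehicle labelled diabetic and from 68.9 (median 81.9) to 210.9 CPM in vehicle labelled non-diabetic. The highest vehicle value was again that of replicate 2, and the next in its group was 106.9 CPM. The log2 fold change was 0.87 ± 0.19 against vehicle labelled diabetic (edgeR adjusted p = 0.00172) and 0.66 ± 0.19 against vehicle labelled non-diabetic (adjusted p = 0.033). Without replicate 2 the latter was 0.95 (adjusted p = 0.000216), whereas leaving out any other library of that group ended the call (adjusted p = 0.0515 to 0.106).

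For the 3 C1q genes and C4b the lowest FGF1 value exceeded the highest value in vehicle labelled diabetic, an arrangement that 3.63% of all genes had, and the exact permutation p was 8.74e-05 for each, the smallest for 9 against 7 mice. Without replicate 2 the same 4 genes were separated from vehicle labelled non-diabetic, as were 3.16% of all genes, and with it none of the 9 was, against 2.38% of all genes.

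C3 on Day 5 turned on the same library. It ran from 3.76 (median 5.84) to 6.47 CPM after FGF1, from 2.74 (median 3.61) to 4.28 CPM in vehicle labelled diabetic and from 2.62 (median 4.17) to 36.6 CPM in vehicle labelled non-diabetic. The log2 fold change was 0.60 ± 0.36 against vehicle labelled diabetic (adjusted p = 0.337) and -0.71 ± 0.33 against vehicle labelled non-diabetic (adjusted p = 0.261), and the latter turned to 0.34 (adjusted p = 0.494) without replicate 2. No call for C3 was made in any of these fits. Of the FGF1-treated mice, 7 of 9 lay above all mice labelled diabetic (exact permutation p = 0.00114).

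C3ar1 ran from 2.26 (median 3.25) to 4.06 CPM after FGF1, from 1.37 to 2.85 CPM in vehicle labelled diabetic and from 0.856 to 3.40 CPM in vehicle labelled non-diabetic. The ranges overlapped, and the log2 fold changes of 0.55 ± 0.22 and 0.62 ± 0.22 did not pass (adjusted p = 0.103 and 0.105), whereas without replicate 2 the second was 0.78 and passed (adjusted p = 0.0338). Cd55 (9.56 to 14.5 CPM after FGF1) and Cd59a (8.64 to 13.1 CPM) overlapped with both vehicle groups and gave log2 fold changes between 0.06 and 0.24, none of which passed.

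Serping1, the C1 inhibitor, ran from 7.19 (median 14.8) to 21.2 CPM after FGF1, from 3.74 (median 9.65) to 12.5 CPM in vehicle labelled non-diabetic and from 5.67 (median 12.2) to 14.6 CPM in vehicle labelled diabetic. In the first comparison 8 of 9 FGF1-treated mice lay above all vehicle-treated mice, and the log2 fold change was 0.71 ± 0.21 (edgeR adjusted p = 0.0439). The call was lost without vehicle replicate 2, 3, 4, 5 or 7, with adjusted p-values of 0.0539 to 0.150. Against vehicle labelled diabetic the log2 fold change of 0.53 ± 0.21 did not pass (adjusted p = 0.11).

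Serping1 varied with genes of fibroblasts from mouse to mouse. Over the 47 libraries, the 3 genes whose deviations from their group means were most like those of Serping1 were Aebp1, Col1a2 and Sned1 (Spearman's rho 0.885, 0.87 and 0.87), of which Col1a2 encodes a chain of type I collagen. The likeness was not limited to fibroblast genes, with a rho of 0.78 for the fibroblast marker Slc6a13 and 0.70 for the astrocyte gene Gfap. It was 0.42 for the interferon-induced Gbp2 and 0.07 for the microglial marker Cx3cr1. The lowest Serping1 value after FGF1 on Day 5, 7.19 CPM in replicate 9, came with the lowest Col1a2 value of that group, 23.9 CPM, and the lowest vehicle value, 3.74 CPM in replicate 3 of the non-diabetic label, came with 15.6 CPM of Col1a2. Among 6 fibroblast markers, Lum (log2 fold change 1.19, adjusted p = 0.0435) and Slc6a13 (1.02, adjusted p = 0.0377) rose against vehicle labelled non-diabetic. Neither passed without replicate 2 of that group (1.10 and 0.88, adjusted p = 0.0866 and 0.0929), and none of the 6 passed against vehicle labelled diabetic (Lum 1.04, adjusted p = 0.0503). The summed level of the list ran from 61.1 to 208 CPM after FGF1, from 42.0 to 112 CPM in vehicle labelled non-diabetic and from 48.8 to 122 CPM in vehicle labelled diabetic, with none of the 6 at 0 throughout. On Day 1 Lum (2.24) and Dcn (1.39) rose and Slc6a13 (-2.71) and Slc22a6 (-3.73) fell, and the summed level ran from 57.0 to 344 CPM after FGF1 and from 92.9 to 173 CPM in vehicle-treated mice. Their part in the Serping1 result was not tested.

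**Figure D3:**
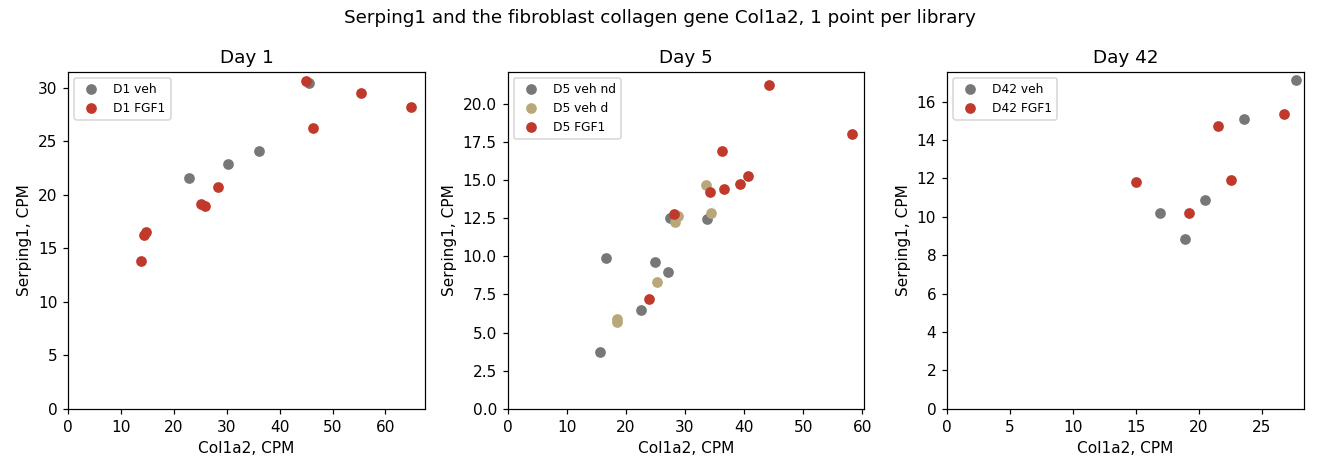
Serping1 (y axis, CPM) against Col1a2 (x axis, CPM) in each library, by day and group. The FGF1 library of Day 5 with the lowest Serping1 (7.19 CPM) is also the lowest of its group in Col1a2 (23.9 CPM), and so is the lowest vehicle library (3.74 and 15.6 CPM).

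Replicate 2 of the vehicle group labelled non-diabetic on Day 5 carried a distinct profile. Relative to the median of the other 6 libraries of its group, it held 2.25 times as much C1qa, 2.24 times as much C1qb and C1qc, 2.62 times as much C4b and 9.38 times as much C3. Serping1 (ratio 1.06) and Cd59a (0.936) were within the range of those libraries, and Cd55 (12.1 CPM) and C3ar1 (3.40 CPM) were the highest of the group. On 11 genes of the interferon response and of MHC class II, a list chosen after these values were seen, the same library held between 4.51 times (Irgm1) and 14.5 times (Iigp1) the group's median. Gbp2, a guanylate-binding protein induced by interferon, measured 87.0 CPM against at most 22.3 CPM in any of the other 46 libraries, and Cd74, the MHC class II invariant chain, 57.4 CPM against at most 10.7 CPM. Ptprc, the leukocyte common antigen, was at 19.4 CPM against 6.71 to 8.34 CPM in its group, and of 4 microglial markers Tyrobp, Cx3cr1 and Tmem119 were above the range of its group, at ratios of 1.64, 1.499 and 1.45, and P2ry12 was inside it, at 1.19. The fibroblast marker Slc6a13 was below that range, at 4.28 CPM against 5.31 to 19.7 CPM. Gfap was just above it, at 254 CPM against 133 to 245.8 CPM.

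**Figure D4:**
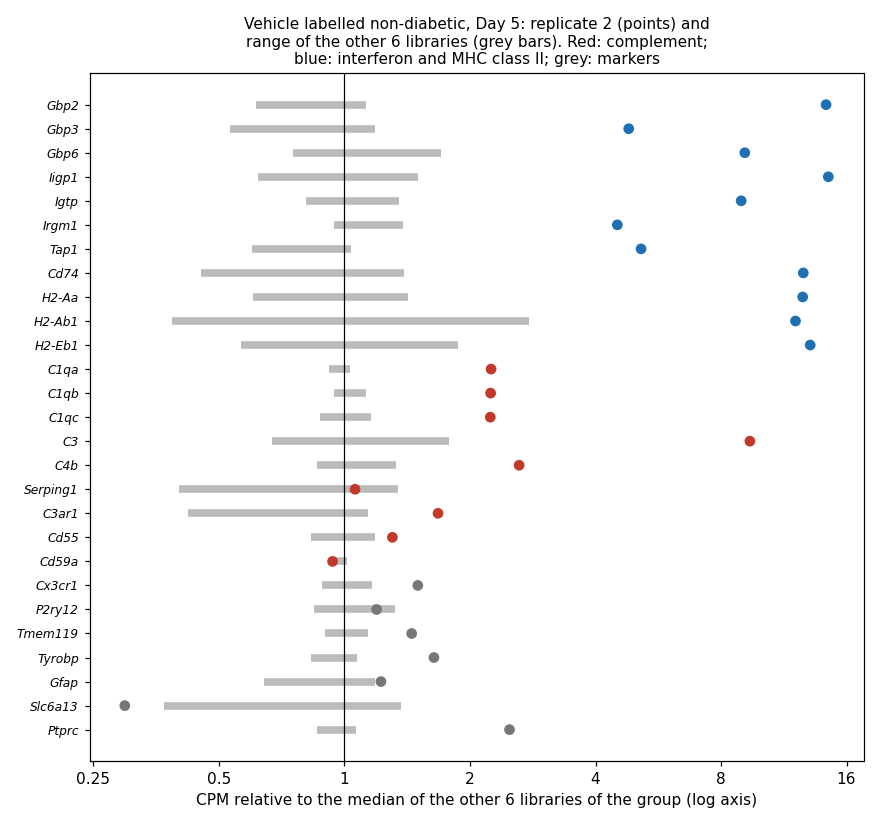
Level of each gene in replicate 2 of the vehicle group labelled non-diabetic on Day 5 (points) relative to the median of the other 6 libraries of that group (log axis), with the range of those 6 as grey bars. C3 stands at 9.38 times the median and the C1q genes near 2.24, while Serping1 and Cd59a lie near 1.

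On Day 42 none of the 9 genes passed in edgeR, and none passed in DESeq2 or limma. At an unadjusted p under 0.05 edgeR found 1 of the 9, and 776 of the 14221 genes, of which 0 (0%) passed the thresholds. These counts of all genes depended on single libraries. Without FGF1 replicate 1 of Day 42, 31 genes passed. At an unadjusted p under 0.05 there were 318 without FGF1 replicate 5 and 1252 without FGF1 replicate 3. None of the 9 passed without any 1 of the 10 libraries of that day. C1qa measured 15.5, 17.0, 18.01, 10.9 and 17.99 CPM after FGF1 and 10.6, 15.0, 15.8, 13.5 and 23.8 CPM in vehicle-treated mice. C1qb ran from 20.5 to 28.3 CPM against 15.96 to 31.7 CPM, and C1qc from 10.6 to 14.1 CPM against 9.05 to 18.1 CPM. The FGF1 ranges of these 3 genes lay within those of vehicle, with log2 fold changes of 0.01 ± 0.20, 0.15 ± 0.17 and -0.09 ± 0.19. In none of the 9 genes did the FGF1-treated mice all lie above the vehicle-treated mice, against 0.0914% of all genes.

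The single gene of Day 42 with an unadjusted p under 0.05 was C4b. It measured 40.3, 37.5, 55.7, 37.2 and 38.8 CPM after FGF1 and 31.1, 44.1, 106, 39.2 and 73.4 CPM in vehicle-treated mice. Its log2 fold change was -0.49 ± 0.24 (edgeR p = 0.0442, adjusted p = 0.909, exact permutation p = 0.341). Vehicle replicate 3 set the mean, and without it the log2 fold change was -0.16. That library also held the highest level of the astrocyte gene Gfap among the Day 42 libraries, 376 CPM, with the other 4 vehicle libraries between 145.9 and 193.6 CPM. The remaining 5 genes gave log2 fold changes from -0.23 (C3ar1) to 0.18 (Cd55), each with an adjusted p of 1.0. C3 ran from 1.94 to 3.80 CPM after FGF1 and from 1.59 to 3.83 CPM in vehicle-treated mice.

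The FGF1 effects were then compared between days, with vehicle labelled non-diabetic as the Day 5 control. From Day 1 to Day 42 the effect decreased past both thresholds for 5 of the 9 genes, against 9.81% of all genes that did so and 16.4% that passed in either direction. The differences in log2 fold change were -1.14 ± 0.28 for C1qa, -0.90 ± 0.24 for C1qb, -1.18 ± 0.27 for C1qc, -0.99 ± 0.32 for C4b and -1.19 ± 0.32 for C3ar1 (edgeR adjusted p = 0.00196, 0.00418, 0.000771, 0.0204 and 0.00433). C4b, unlike the other 4, lost this call without vehicle replicate 3 of Day 42 (difference -0.66, adjusted p = 0.101) or vehicle replicate 2 of Day 1 (adjusted p = 0.0611). C3 gained a call when replicate 2 of the Day 5 vehicle group labelled non-diabetic was left out of the fit (-0.86, adjusted p = 0.0451), which made 6 of the 9 genes. Of all genes, 9.77% then decreased past both thresholds and 16.3% passed in either direction.

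Between Day 1 and Day 5, 3 genes differed in their FGF1 effect, against 15.8% of all genes. The effect was smaller on Day 5 for C1qc (-0.68 ± 0.24, adjusted p = 0.0293) and C3 (-1.72 ± 0.50, adjusted p = 0.00723) and larger for Serping1 (0.84 ± 0.30, adjusted p = 0.0338). With Day 5 vehicle replicate 2 left out, the calls for C1qc (-0.45, adjusted p = 0.1) and C3 (-0.68, adjusted p = 0.1) were lost. C1qc also lost its call without vehicle replicate 2 (-0.55, adjusted p = 0.12) or 3 (-0.59, adjusted p = 0.0801) of Day 1, and its adjusted p was 0.05 without the deepest FGF1 libraries of Day 5, replicates 8 and 9. The call for Serping1 was lost without vehicle replicate 2 of Day 1 (0.73, adjusted p = 0.107), and without vehicle replicate 3 (0.70, adjusted p = 0.0692) or 4 (0.78, adjusted p = 0.0585) of Day 5. Between Day 5 and Day 42, C4b alone differed (-1.14 ± 0.30, adjusted p = 0.0488), against 0.717% of all genes, and 12 of the 17 fits without a single Day 42 library or Day 5 vehicle library lost that call.

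The vehicle groups of Day 5 did not differ in any of the 9 genes past the thresholds, with 0 of 14221 genes (0%) passing in edgeR and 193 at an unadjusted p under 0.05. DESeq2 and limma also passed none of the 9. The only member with an unadjusted p under 0.05 in edgeR was C3, with a log2 fold change of -1.31 ± 0.37 for diabetic minus non-diabetic (p = 0.000916, adjusted p = 1.0, exact permutation p = 0.184), which was -0.26 without replicate 2.

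C1q levels were set beside those of 12 microglial markers, all of them in the table and none at 0 throughout a group. On Day 1, 7 of the 12 rose after FGF1, among them Fcrls (log2 fold change 1.83), Tmem119 (1.15), Sall1 (1.14) and Aif1 (0.88), and P2ry12 fell by 0.66 on the log2 scale. Their summed level ran from 286.7 to 362.8 CPM after FGF1 and from 241 to 270.8 CPM in vehicle-treated mice. The summed C1q level per 100 CPM of these markers ran from 24.0 (median 28.0) to 40.8 CPM after FGF1 and from 12.5 (median 19.1) to 24.2 CPM in vehicle-treated mice, so that the groups overlapped between 24.0 and 24.2 CPM only. On Day 5, 7 markers rose against vehicle labelled diabetic and 1, Fcrls, against vehicle labelled non-diabetic, where 4 of the 12 (Fcrls, Tyrobp, Tmem119 and Csf1r) rose without replicate 2. The C1q ratio ran from 33.0 to 38.2 CPM after FGF1, from 27.0 to 31.8 CPM in vehicle labelled diabetic and from 26.3 to 44.3 CPM in vehicle labelled non-diabetic, where replicate 2 held the highest value and the next was 31.1 CPM. On Day 42 no marker passed, and the ratio ran from 12.1 to 19.7 CPM after FGF1 and from 12.0 to 28.4 CPM in vehicle-treated mice.

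Macrophages of the brain's borders also express C1q genes. Of 6 such markers 4 were in the table, and 3 of them rose on Day 1, when their summed level ran from 10.6 to 48.8 CPM after FGF1 and from 8.75 to 22.5 CPM in vehicle-treated mice. On Day 5 it ran from 18.4 to 37.4 CPM after FGF1, from 13.6 to 22.1 CPM in vehicle labelled non-diabetic, where no marker passed, and from 15.3 to 20.3 CPM in vehicle labelled diabetic, against which Mrc1 passed (0.85, adjusted p = 0.0294). Of 6 markers of blood monocytes and neutrophils only Ccr2 was in the table, at a median of 1.41 CPM after FGF1 and 0.549 CPM in vehicle-treated mice on Day 1, when it rose (log2 fold change 1.69, adjusted p = 0.00991). On Day 5 its medians were 2.83 CPM after FGF1, 1.39 CPM in vehicle labelled non-diabetic and 1.15 CPM in vehicle labelled diabetic, and it passed in neither comparison. Of 6 markers of astrocytes, which express C4b, 2 fell and none rose on Day 1, with a summed level of 2178 to 2780 CPM after FGF1 and 3072 to 3853 CPM in vehicle-treated mice. On Day 5 their summed level was higher after FGF1 (3721 to 4203 CPM) than in vehicle labelled non-diabetic (3344 to 3588 CPM) or diabetic (3250 to 3577 CPM), and Aqp4 passed in both comparisons (0.98 and 1.01). Gfap, which reactive astrocytes express, ran from 1437 to 2182 CPM after FGF1 on Day 1 and from 226.9 to 286.1 CPM in vehicle-treated mice, and on Day 5 from 399.6 to 643.9 CPM and, in vehicle labelled non-diabetic and diabetic, from 133 to 254 CPM and from 178.4 to 272.1 CPM. The part of these cell types in the complement results was not tested.

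Per kilobase of exon, the order of levels in vehicle-treated mice on Day 1 was C1qb (19.7 ± 5.44 CPM per kb, SD, n = 4), C1qa (14.3 ± 3.72), C4b (12.2 ± 1.59), Serping1 (10.7 ± 1.68), Cd59a (10.2 ± 3.00), C1qc (5.95 ± 1.65), Cd55 (2.04 ± 0.57), C3 (1.04 ± 0.14) and C3ar1 (0.521 ± 0.061). Each neighbour from C1qb to C1qc differed from the next by less than the sum of their SDs, and the steps from C1qc to Cd55, to C3 and to C3ar1 were larger than that. On Day 42 C1qb (20.7 ± 5.23 CPM per kb, SD, n = 5) and C1qa (15.1 ± 4.74) again led, and C3 (0.507 ± 0.168) was last, within 1 SD of C3ar1 (0.571 ± 0.161). In vehicle labelled non-diabetic on Day 5 the order differed, with C1qa (29.8 ± 12.1 CPM per kb, SD, n = 7) above C1qb (23.2 ± 9.08) and C1qc (17.3 ± 6.98) next to C4b (17.6 ± 8.83), each by less than the sum of their SDs. Without replicate 2 C1qa (25.3 ± 1.10, n = 6) was above C1qb (19.9 ± 1.35) by more than that sum, and C1qc (14.7 ± 1.78) and C4b (14.4 ± 2.44) changed places within it.

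The balance among the C1q genes changed with the day. The ratio of C1qc to C1qb counts was 0.538 ± 0.00787 (SD, n = 4) in vehicle-treated mice on Day 1, 1.32 ± 0.163 (n = 7) in vehicle labelled non-diabetic on Day 5 and 0.596 ± 0.0428 (n = 5) on Day 42. In FGF1-treated mice the same ratio was 0.570 ± 0.142 (n = 10), 1.15 ± 0.0761 (n = 9) and 0.502 ± 0.0466 (n = 5) on the 3 days. Every Day 5 library was at 1.035 or above and every other library at or below 0.941, and this highest value outside Day 5 was that of the shallowest library. Since each day had its own preparation, no test was made of C1q levels or ratios between days. Within Day 42 the ratio ran from 0.446 to 0.545 after FGF1 and from 0.564 to 0.665 in vehicle-treated mice, without overlap. The other ratios overlapped on that day, at 0.535 to 0.697 against 0.640 to 0.751 for C1qa to C1qb and at 0.721 to 0.967 against 0.762 to 0.980 for C1qc to C1qa. On Day 1 the C1qc to C1qb ratio overlapped, at 0.4455 to 0.941 after FGF1 and 0.5285 to 0.5458 in vehicle-treated mice. It also overlapped on Day 5, at 1.049 to 1.25 after FGF1. Vehicle labelled non-diabetic then ran from 1.035 to 1.494 and vehicle labelled diabetic from 1.197 to 1.527. The share of other gene pairs separated on Day 42 was not determined.

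By the same measure of likeness as for Serping1, over 47 libraries that share their preparation within a day and with the 9 members left out of the ranking, C1qa varied most like Ctsz, Tmem119 and H2-D1 (Spearman's rho 0.84, 0.84 and 0.83), C1qb most like Grn, Rexo1 and Agpat1 (0.85, 0.83 and 0.825) and C1qc most like Pfkl, Fam173a and Unc93b1 (0.82, 0.81 and 0.81). C4b was nearest to Pbxip1, Cyba and Trrap (0.76, 0.72 and 0.71), and C3 had the weakest neighbours, Parp10, Ms4a6b and Cutc (0.56, 0.54 and 0.53). C3ar1 was nearest to Wdr26, Sec24a and Ube4a (0.69, 0.67 and 0.66), Cd55 to Capsl, Rgs22 and Arhgef26 (0.74, 0.68 and 0.67) and Cd59a to Grb14, Pip4k2a and Ttll7 (0.715, 0.715 and 0.706). Within the C1q genes rho was 0.89 for C1qa with C1qb, 0.81 for C1qa with C1qc and 0.78 for C1qb with C1qc. Cx3cr1, a microglial marker as is Tmem119, had a rho of only 0.105 with C1qa, 0.081 with C1qb and 0.21 with C1qc.

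The wider pathway was read from a list of 47 further complement genes, of which 19 were in the table. On Day 1, 4 of the 19 rose and 6 fell, against 11.5% and 8.05% of all genes, with a median log2 fold change of -0.08. Those that rose were Itgb2 (1.42 ± 0.18) and Itgam (1.22 ± 0.19), the chains of complement receptor 3, Clu (0.82 ± 0.10), an inhibitor of the terminal complex, and Cd93 (0.80 ± 0.14). Those that fell with the largest changes were C2 (-1.23 ± 0.23), the protease partner of C4b, Csmd3 (-0.81 ± 0.10), a membrane regulator, C8g (-0.79 ± 0.18), a chain of the terminal component C8, and Vtn (-0.63 ± 0.17), an inhibitor of the terminal complex. The other 2 that fell did so by 0.54 and 0.63 on the log2 scale. C2 was low, at 0.905 ± 0.280 CPM (SD, n = 10) after FGF1 and 2.16 ± 0.18 CPM (n = 4) in vehicle-treated mice.

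In the fit of all libraries, Clu was the gene of this list that rose on Day 5 in both comparisons. Clu measured 1063 ± 37.7 CPM (SD, n = 9) after FGF1 and 578 ± 23.9 CPM (n = 7) in vehicle labelled non-diabetic, a log2 fold change of 0.88 ± 0.08 (edgeR adjusted p = 7.5e-11). Against vehicle labelled diabetic its log2 fold change was 0.89 ± 0.08, and Itgb2 also passed (0.66 ± 0.16, adjusted p = 0.00422). In the fit without vehicle replicate 2, Itgb2 passed against vehicle labelled non-diabetic as well (0.64 ± 0.14, adjusted p = 0.0026), and Itgam passed against vehicle labelled diabetic (0.57, adjusted p = 0.0396). None of the 19 passed on Day 42 in edgeR, DESeq2 or limma, and 0 had an unadjusted p under 0.05 in edgeR.

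**Figure D5:**
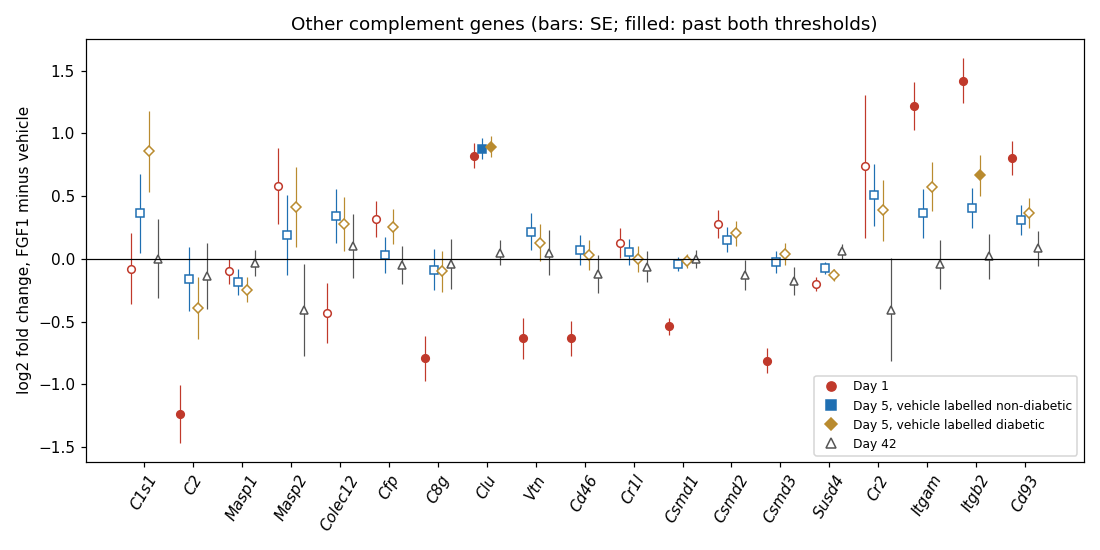
Log2 fold changes with SE (y axis) of 19 other complement genes (x axis) for FGF1 against vehicle on Days 1, 5 and 42. Filled symbols passed both thresholds: 4 genes up and 6 down on Day 1, Clu up on Day 5 against both vehicle groups with Itgb2 against the diabetic label, and none on Day 42.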

How the data were processed

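RNA was measured in 47 hypothalamic libraries, 1 per mouse. The deposited values are raw read counts per gene. Per the submitters' processing notes and the study's methods, reads from a stranded mRNA kit were aligned with STAR; the counting program is not given in the sources used here, and the build is named by a human label (Grch38) for mouse reads. Coordinates here are therefore those of GENCODE M21 and RefSeq on GRCm38 and were matched by symbol.

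The 9 members and the marker and pathway lists were chosen with earlier results of these data known. Counts of 14221 genes were fitted with edgeR 4.0.16 (R 4.3.3; TMM scaling, 7 group means over all 47 libraries, quasi-likelihood F test), with Benjamini-Hochberg adjustment across the whole table. A call needed an adjusted p under 0.05 and a change of more than 0.5 on the log2 scale in either direction. The filter on low counts removed 0 genes. Genes below it were already missing from the deposited table, and why listed genes are absent is not given in the sources used here. DESeq2 1.42.0, limma 3.58.1 with sample quality weights, other scalings and filters, thinning to 7579695 counts, each day fitted alone and left-out libraries were alternatives. Single genes were also tested by two-sided exact permutation of log2(CPM + 0.5) (Python 3.11.15, scipy 1.17.1). The fits were tested on simulated data.

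Members were named in every comparison, as were other complement genes that passed (the 8 with the largest change where more did) and, for each member, the 3 genes outside the 9 of mean CPM at least 1 with the highest rank correlation of deviations from the group means. No pair of libraries held identical counts. Library totals, 1243280 to 47082403, set the counting precision, which was lowest in the shallowest library. Groups come from the labels. Each library is labelled as a separate sample, and p-values measure the spread between these samples. Some genes of the pathway and interferon lists are not reported here, and the list counts leave them out.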

Additional observations from a re-analysis of the deposited data

Results flagged for a closer look

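Of 63 groups tested for a library far from the rest (Dixon's test, 9 genes in 7 groups), 10 held one, and chance flags about 1 in 20 groups. In 5 of them it was replicate 2 of the vehicle group labelled non-diabetic on Day 5, with C1qa at 59.57 CPM (others 24.38 to 27.35), C1qb at 47.5 CPM (20.06 to 23.84), C1qc at 63.08 CPM (24.67 to 32.72), C3 at 36.64 CPM (2.622 to 6.937) and C4b at 210.9 CPM (68.88 to 106.9). C4b was at 172 CPM in replicate 6 of the FGF1 group of Day 1, where the others ran from 73.01 to 105.1 CPM. In replicate 2 of the Day 1 vehicle group C4b was at 56.12 CPM (others 73.44 to 75.28) and Cd59a at 26.51 CPM (others 15.13 to 16.07). C4b was at 55.69 CPM in replicate 3 of the FGF1 group of Day 42 (others 37.18 to 40.28), and Cd55 at 14.54 CPM in replicate 4 of the FGF1 group of Day 5 (others 9.56 to 11.59).

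The FGF1 effect differed between days by a test of the difference in 9 cases. Relative to Day 1, the log2 effect on Day 5 differed by -0.68 for C1qc, -1.72 for C3 and 0.84 for Serping1. On Day 42 relative to Day 1 it differed by -1.14 for C1qa, -0.90 for C1qb, -1.18 for C1qc, -0.99 for C4b and -1.19 for C3ar1, and relative to Day 5 by -1.14 for C4b.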

How the results depend on the processing

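Of 1208 values of single genes under the alternatives, 1080 kept their direction and their side of the thresholds, 48 lost and 22 gained a call, and 58 changed sign. The number of members passing on Day 5 against vehicle labelled non-diabetic was 3, and became 5 with each day fitted alone, 6 in limma, 6 with both vehicle groups together and 1 to 5 without single libraries. The share of all genes that were higher also rose, from 1.31% to 2.13%, 2.46% and 2.2% in the first 3 of these, and was 1.01% to 1.49% without single libraries. For the Day 5 minus Day 1 difference it was 3, and became 1 in limma, 1 with both vehicle groups together and 1 to 4 without single libraries. For Day 42 minus Day 5 it was 1, and became 0 with DESeq2 size factors, in limma, after thinning and with the 2 deepest Day 5 FGF1 libraries left out, and 0 to 1 without single libraries. The counts on Day 1 and for Day 42 minus Day 1 were each 5, and 4 to 5 without single libraries of the groups compared. Without replicate 2 of the Day 5 vehicle group labelled non-diabetic, which enters these fits only through the shared spread, both were 6. C3 on Day 1 was not called after thinning (log2 fold change 0.87, adjusted p = 0.0926).

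Changes of sign were mostly among values near 0. In limma C3 on Day 5 against vehicle labelled non-diabetic was 0.11, C1qc and Cd59a on Day 42 were 0.0639 and -0.0586, and the Cd55 difference between Days 5 and 1 was -0.0131. After thinning, C3ar1 and Cd55 between the vehicle groups were -0.0171 and 0.0139, the Cd55 difference was 0.0925 for Day 42 minus Day 1 and 0.005 for Day 42 minus Day 5, and that of Cd59a for the latter 0.0222. The Cd55 difference for Day 42 minus Day 1 was 0.0459 in DESeq2 and 0.0498 with its size factors. Without single libraries, C3 on Day 5 against vehicle labelled non-diabetic ran from -0.87 to 0.34, and on Day 42 C1qa ran from -0.10 to 0.21, C1qc from -0.21 to 0.0413, Cd59a from -0.0503 to 0.12 and Serping1 from -0.0524 to 0.19. Between the vehicle groups C3ar1 ran from -0.0691 to 0.23, C4b from -0.285 to 0.0796 and Cd55 from -0.0828 to 0.0272. The Cd55 difference ran from -0.18 to 0.13 (Day 5 minus Day 1), from -0.20 to 0.11 (Day 42 minus Day 1) and from -0.0864 to 0.0582 (Day 42 minus Day 5), and for the last contrast C3 ran from -0.18 to 1.06 and Cd59a from -0.11 to 0.059. The cause of these changes was not tested.

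No paired analysis was possible because the replicate numbers were given in accession order and the labels pair no mice across groups. The fits that leave out Day 5 vehicle libraries, the 2 deepest Day 5 FGF1 libraries or replicate 6 of the Day 1 FGF1 group were chosen after seeing the data.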
